A study of Mus musculus with 3 samples.

Results

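The genes *Mbp*, *Pmp22*, *Prx*, *Sox10*, *S100b*, *Cnp* and *Ngfr*, which mark Schwann cells and their myelin, were followed over 3 Visium slides of healing mouse skin. They are listed by symbol, a rule that uses no measured value, although the list was drawn up with earlier results of these data known, and they are 7 of the 32285 genes in the matrices. The 3 groups were Day 3, Day 7 and Day 14 after wounding, each with 1 section, and the labels name no difference between them other than the day. The mice were male C57BL/6J animals of 7 to 12 weeks. Each received 4 full-thickness excisional wounds in the dorsal skin, made with a 4-mm punch, and the wound was collected with a 6-mm punch and cut into frozen sections of 10 µm. A punch of this size takes unwounded rim, underlying muscle and fat along with the wound, so that a value is one of the whole piece unless spots are parted. With 1 section a day no test between days was possible. All values below are descriptions of these 3 slides, and their 95% intervals cover counting error only.

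A Visium slide reads polyadenylated RNA from an array of barcoded spots, each of which can hold several cells of different types, and counts molecules as UMIs. The authors' position files marked 664, 549 and 697 of 4992 spots as lying under tissue on Day 3, Day 7 and Day 14. These marked spots held 1772259, 4442962 and 4611723 UMIs, with medians of 1513, 6687 and 4827 UMIs a spot. The spots outside the marked region held 1703210, 6457066 and 4715272 UMIs, and their muscle genes (*Acta1*, *Mylpf* and 8 others) summed to 87478, 120117 and 131438 counts per 1000000 UMIs (CPM), above the 41337, 54847 and 62766 CPM of the marked spots. They therefore held tissue RNA and are described beside the marked spots. The defining genes of skin were present, and *Krt5*, *Krt14*, *Col1a1* and *Dcn* each lay at 567 CPM or more in the marked spots of every slide. The 4992 barcodes are shared by the 3 slides by design of the array.

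Schwann cells ensheath the axons of peripheral nerves, and myelinating Schwann cells wrap 1 axon each in layers of compacted membrane. *Mbp* and *Pmp22* encode proteins of compact myelin, *Prx* encodes periaxin, which links the sheath to the surrounding basal lamina, and *Cnp* encodes an enzyme of the non-compact sheath. *Sox10* is the transcription factor that sets Schwann cell identity, *S100b* is a calcium-binding protein used as their marker, and *Ngfr* is the low-affinity neurotrophin receptor p75, which is high in immature and repair Schwann cells after nerve injury. Several members are made elsewhere too: *Pmp22* in fibroblasts and epithelia, *Sox10* in melanocytes, *S100b* in fat and cartilage cells, *Ngfr* in epithelial and mesenchymal cells, and the *Mbp* locus also yields Golli transcripts of immune cells, which a gene-level count does not separate.

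All 7 members are protein coding in the GRCm38.p6 annotation, with *Pmp22*, *Cnp* and *Ngfr* on chromosome 11, *Prx* on chromosome 7, *S100b* on chromosome 10 and *Sox10* on chromosome 15. Promoter windows of the same build, from RefSeq, were read for 5 of the 7 members. The 250 bases before a start site are given for *Prx* and *Cnp*, which lay in part with *Mbp* in a few rich spots, and for *Ngfr* and *S100b*, which had few or no UMIs there. The windows are chr7:27499074-27499323 on the plus strand, chr11:100574689-100574938 on the plus strand, chr11:95587699-95587948 on the minus strand and chr10:76253586-76253835 on the plus strand, printed 5′ to 3′ on the gene's own strand, with the ends of the *Prx* and *Cnp* windows overlapping the annotated gene. Capitals mark a match of ACAAAG, a core of Sox factor sites, AACAAT, a variant of it, GGGCGG, the GC box, or TATAAA, each searched on both strands.
Prx: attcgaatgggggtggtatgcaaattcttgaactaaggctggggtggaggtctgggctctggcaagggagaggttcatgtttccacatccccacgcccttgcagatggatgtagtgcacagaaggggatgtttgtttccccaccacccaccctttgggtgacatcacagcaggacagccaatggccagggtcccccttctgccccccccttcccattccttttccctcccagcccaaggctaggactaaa
Cnp: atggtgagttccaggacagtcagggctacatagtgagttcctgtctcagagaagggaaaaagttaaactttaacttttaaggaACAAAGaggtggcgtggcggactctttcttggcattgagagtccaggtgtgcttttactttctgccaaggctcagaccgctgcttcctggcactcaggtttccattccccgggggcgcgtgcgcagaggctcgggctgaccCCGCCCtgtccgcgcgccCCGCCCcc
Ngfr: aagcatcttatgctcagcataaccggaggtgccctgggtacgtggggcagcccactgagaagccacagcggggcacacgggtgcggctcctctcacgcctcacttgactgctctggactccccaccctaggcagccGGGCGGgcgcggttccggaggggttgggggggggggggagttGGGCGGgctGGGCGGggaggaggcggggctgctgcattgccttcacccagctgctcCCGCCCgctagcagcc
S100b: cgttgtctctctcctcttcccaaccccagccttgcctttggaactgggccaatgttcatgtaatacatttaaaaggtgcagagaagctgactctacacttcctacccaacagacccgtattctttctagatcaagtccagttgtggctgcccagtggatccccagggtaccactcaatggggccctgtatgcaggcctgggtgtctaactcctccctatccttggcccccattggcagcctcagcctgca
The *Cnp* window held 1 ACAAAG and 2 GGGCGG, the *Ngfr* window held 4 GGGCGG, and the *Prx* and *S100b* windows held none of the 4 motifs. Over 32851 promoter windows of the same length, ACAAAG was found in 16.5%, AACAAT in 9.42%, GGGCGG in 32.7% and TATAAA in 12.4%. A match is a run of letters and not a bound site.

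The structural myelin genes were measured first. In the marked spots *Mbp* gave 68 UMIs on Day 3, which is 38.4 CPM (95% interval 29.8 to 48.6), 113 UMIs on Day 7, or 25.4 CPM (21.0 to 30.6), and 164 UMIs on Day 14, or 35.6 CPM (30.3 to 41.4). *Pmp22* was at 313 CPM (287 to 340), 186 CPM (174 to 200) and 236 CPM (222 to 251) on the same days. Both genes were thus lowest on Day 7. The *Pmp22* intervals of the 3 days did not overlap, while those of *Mbp* did, by less than 1 CPM between Day 7 and each other day. *Prx* gave 7, 19 and 31 UMIs, or 3.95, 4.28 and 6.72 CPM, and its intervals of 1.59 to 8.14, 2.57 to 6.68 and 4.57 to 9.54 CPM overlapped on all days. *Cnp* followed another order, with 29, 99 and 57 UMIs, or 16.4, 22.3 and 12.4 CPM, and intervals of 10.96 to 23.5, 18.1 to 27.1 and 9.36 to 16.01, so that Day 7 lay above Day 14 and neither was apart from Day 3.

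The regulator was highest on Day 7 and the receptor lowest on Day 14. *Sox10* gave 22 UMIs on Day 3, or 12.4 CPM (7.78 to 18.8), 128 UMIs on Day 7, or 28.8 CPM (24.0 to 34.3), and 73 UMIs on Day 14, or 15.8 CPM (12.4 to 19.9), and the Day 7 interval lay above both others. *Ngfr* gave 30 UMIs on Day 3, or 16.9 CPM (11.4 to 24.2), 91 UMIs on Day 7, or 20.5 CPM (16.5 to 25.1), and 26 UMIs on Day 14, or 5.64 CPM (3.68 to 8.26), so that Day 14 lay below both earlier days. *S100b* stayed low throughout, with 12, 26 and 13 UMIs, or 6.77, 5.85 and 2.82 CPM. In such pooled values fewer cells of a type and less RNA per cell cannot be told apart.

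**Figure D1:**
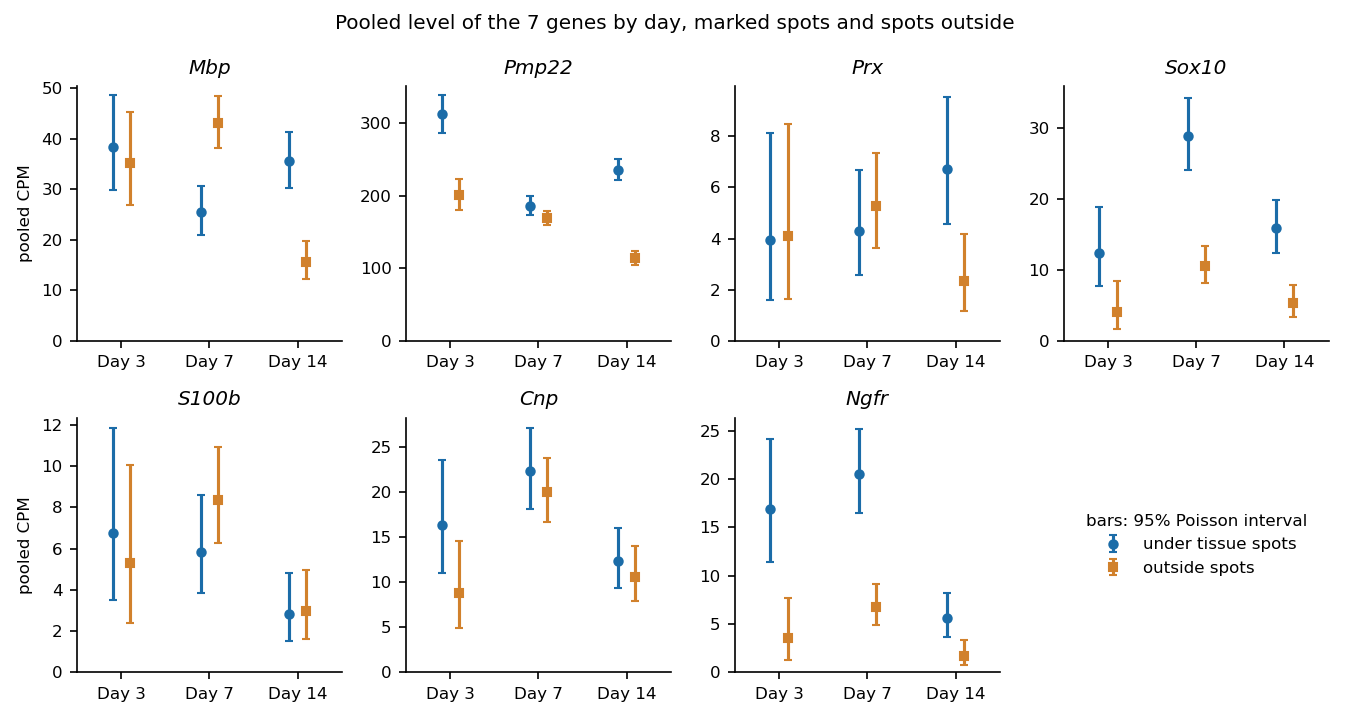
Pooled CPM of each gene (y axis, from 0, a scale of its own in each panel) on Day 3, Day 7 and Day 14 (x axis), for spots under tissue (circles) and outside (squares), with 95% Poisson intervals as bars and 1 section a day. Under tissue *Sox10* was highest on Day 7 at 28.8 CPM and *Ngfr* lowest on Day 14 at 5.64 CPM, and outside *Mbp* was highest on Day 7 at 43.1 CPM.

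Ratios between days were called where they reached 1.5-fold with an interval that left out 1, among genes with at least 20 UMIs over both sections. From Day 3 to Day 7, 1 of 7 members was higher, *Sox10* at 2.32-fold (1.47 to 3.83), against 15.9% of 12541 genes. Lower were 2 of 7, *Mbp* at 0.663-fold (0.486 to 0.909) and *Pmp22* at 0.596-fold (0.535 to 0.665), against 14.2% of genes. From Day 3 to Day 14, 0 of 7 members were higher, where 24.4% of 12866 genes were, and 2 of 7 were lower, *S100b* at 0.416-fold (0.175 to 0.998) and *Ngfr* at 0.333-fold (0.189 to 0.583), against 13.6% of genes. From Day 7 to Day 14, 0 of 7 were higher against 22.3% of 13412 genes, and 4 of 7 were lower against 14.7%. These 4 were *Sox10* at 0.549-fold (0.406 to 0.738), *S100b* at 0.482-fold (0.227 to 0.972), *Cnp* at 0.555-fold (0.393 to 0.776) and *Ngfr* at 0.275-fold (0.171 to 0.430). The 3 structural genes *Mbp*, *Pmp22* and *Prx* had ratios above 1 between these days, at 1.40, 1.27 and 1.57, which did not pass the call. The median log2 ratio of the members was 0.11, -0.40 and -0.85 for Day 7 over Day 3, Day 14 over Day 3 and Day 14 over Day 7, beside 0.02, 0.17 and 0.13 over all genes tested. Each pair of these comparisons shares a section, so that the values of one are not independent of another's.

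Leaving out a few spots moved the *Mbp* ratios, that of Day 7 over Day 3 within the interval given above. Without the 1 marked spot a slide that held the most UMIs of 10 other Schwann cell genes (among them *Mag*, *Drp2*, *Ncmap*, *Cldn19*, *Gjc3*, *Cdh19*, *Scn7a* and *Kcna1*, hereafter the marker genes), the Day 7 over Day 3 ratio of *Mbp* was 0.742 (0.538 to 1.03) and no longer called, and *Pmp22* stayed lower at 0.626 (0.560 to 0.699). The *Mbp* ratio of Day 14 over Day 7 was 1.08 (0.831 to 1.40) without them. With every spot of at least 10 marker UMIs left out, a setting chosen after the values were seen, the *Mbp* ratios were 0.742 and 0.994 (0.760 to 1.299), and from Day 3 to Day 14 *S100b* at 0.420 (0.177 to 1.01) was no longer called while *Pmp22* at 0.665 (0.597 to 0.742) was. Over all spots of the slide, marked or not, the Day 7 over Day 3 ratio of *Mbp* was 0.974 (0.796 to 1.20), that of *Pmp22* was 0.683, short of the call, and that of *Cnp* became 1.65 (1.19 to 2.34) and passed it. *Ngfr* was still lower on Day 14 than on Day 7 without those spots, at 0.294-fold. The largest counts of *Sox10* and *Ngfr* in a single marked spot were 4 and 6 UMIs, where *Mbp* reached 37 and *Pmp22* 132.

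Outside the marked region the members took other levels. On Day 7 *Mbp* was at 43.1 CPM outside (38.1 to 48.4, 278 UMIs) and 1.69-fold (1.36 to 2.13) above the marked spots, 1 of 7 members called higher against 7.10% of 13188 genes. That call rested on the few outside spots with at least 10 marker UMIs, since without such spots the ratio was 0.999 (0.781 to 1.28). On the same slide *Sox10* was at 10.5 CPM outside, 0.366-fold, and *Ngfr* at 6.81 CPM, 0.333-fold, so that 2 of 7 members were lower against 29.8% of genes. On Day 14 *Mbp* went the other way, with 15.7 CPM outside (12.3 to 19.7) and 0.441-fold, and 5 of 7 members were lower outside, the others being *Pmp22* at 0.481-fold, *Prx* at 0.347-fold, *Sox10* at 0.335-fold and *Ngfr* at 0.301-fold, against 42.1% of 13171 genes. None of 7 was higher there, where 5.47% of genes were. On Day 3 none of the 6 members tested was higher outside, against 7.43% of 10974 genes, and 3 were lower, *Pmp22* at 0.644-fold, *Sox10* at 0.331-fold and *Ngfr* at 0.208-fold, against 30.2%. *Sox10* and *Ngfr* were lower outside on all 3 slides.

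The 10 marker genes served to find spots rich in Schwann cell RNA without use of the members. Their sum was 120, 109 and 204 CPM in the marked spots of Day 3, Day 7 and Day 14, with *Ncmap* at 0 UMIs on Day 3 and *Kcna1* at 0 UMIs on Day 7. Spots with at least 2 of their UMIs numbered 31, 110 and 137. They were deeper than the other marked spots, with medians of 2723 against 1495, 12268.5 against 5307 and 8607 against 4269 UMIs, and the part of depth in the following ratios was not tested beyond the thinned values given with the alternatives.

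On Day 3 all 5 members with enough UMIs were higher in the marker spots, against 5.08% of 9322 genes. *Mbp* was 3.27-fold, *Pmp22* 2.80-fold, *Sox10* 6.61-fold, *Cnp* 3.02-fold and *Ngfr* 5.78-fold the level of the other spots. Without the richest spot *Pmp22* at 2.17-fold, *Sox10* at 5.83-fold and *Ngfr* at 5.83-fold were still called, and without the 5 richest only *Pmp22* at 1.83-fold. On Day 7 the call went to 1 of 6 members, *Ngfr* at 1.84-fold (1.19 to 2.84), against 1.86% of 11832 genes, and *Ngfr* was at 1.38-fold, not called, without the 5 richest spots. On Day 14 it went to 3 of 6, *Mbp* at 2.96-fold, *Pmp22* at 1.80-fold and *Cnp* at 2.03-fold, against 3.00% of 12224 genes. Without the richest Day 14 spot the *Mbp* ratio was 1.79 and the only one called, and without the 5 richest none was.

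Few adjacent spots held a minor part of the structural myelin RNA of each slide, at most 30.2% of the UMIs of a gene. Groups of touching spots with at least 10 marker UMIs each, a cut chosen after the values were seen, were found on all 3 slides. The Day 14 group lay within the marked region and had 5 spots. Its richest spot held 6381 UMIs, of which 132 were *Pmp22*, 37 *Mbp*, 6 *Cnp*, 3 *Sox10* and 2 *Prx*, with 0 *S100b* and 0 *Ngfr*. That 1 spot carried 22.6% of all *Mbp* UMIs and 12.1% of all *Pmp22* UMIs in the marked spots of the slide. Over the whole slide, marked or not, the group of 5 spots held 17.2% of *Mbp* and 10.2% of *Pmp22* UMIs. In the richest spot alone the *Mbp* level was 210-fold that of the other marked spots (142 to 305), and the *Pmp22* level 99.5-fold (82.3 to 120).

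The Day 7 group lay wholly outside the marked region, the nearest spot 3.46 spot pitches away from it, a pitch being the distance between neighbouring spots. It had 5 touching spots with 109 *Mbp*, 164 *Pmp22*, 16 *Prx*, 16 *Cnp*, 4 *Sox10*, 2 *Ngfr* and 0 *S100b* UMIs. These were 27.9% of the slide's *Mbp*, 30.2% of its *Prx*, 8.53% of its *Pmp22* and 7.02% of its *Cnp*, but 2.04% of its *Sox10* and 1.48% of its *Ngfr*. The 2 richest spots held 27 and 53 *Mbp* UMIs of 7684 and 6626 UMIs in all. Without the richest of them the ratio of *Mbp* outside over under tissue on Day 7 was 1.52 (1.22 to 1.92), and without all spots of at least 10 marker UMIs it was 0.999. Within the marked region of Day 7 the spot with the most marker UMIs was a deep one, with only 10 of them among 18749 UMIs. The richest outside spot held 110 among 7684. The marked spot held 0 *Mbp*, 2 *Sox10* and 6 *Ngfr* UMIs.

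The Day 3 group sat on the edge of the marked region, with 1 spot marked and its neighbour not. The marked spot had 1152 UMIs, among them 25 *Pmp22*, 7 *Mbp*, 2 *Cnp*, 1 *Sox10* and 1 *Prx*, and the neighbour had 835 UMIs, among them 5 *Pmp22* and 4 *Mbp*. Both held 0 *Ngfr* and 0 *S100b*. Together they made up 8.59% of the *Mbp* and 3.34% of the *Pmp22* of the slide. On all 3 slides, then, these groups of touching spots held several *Mbp* and *Pmp22* UMIs, fewer of *Prx* and *Cnp*, and no *S100b*.

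**Figure D2:**
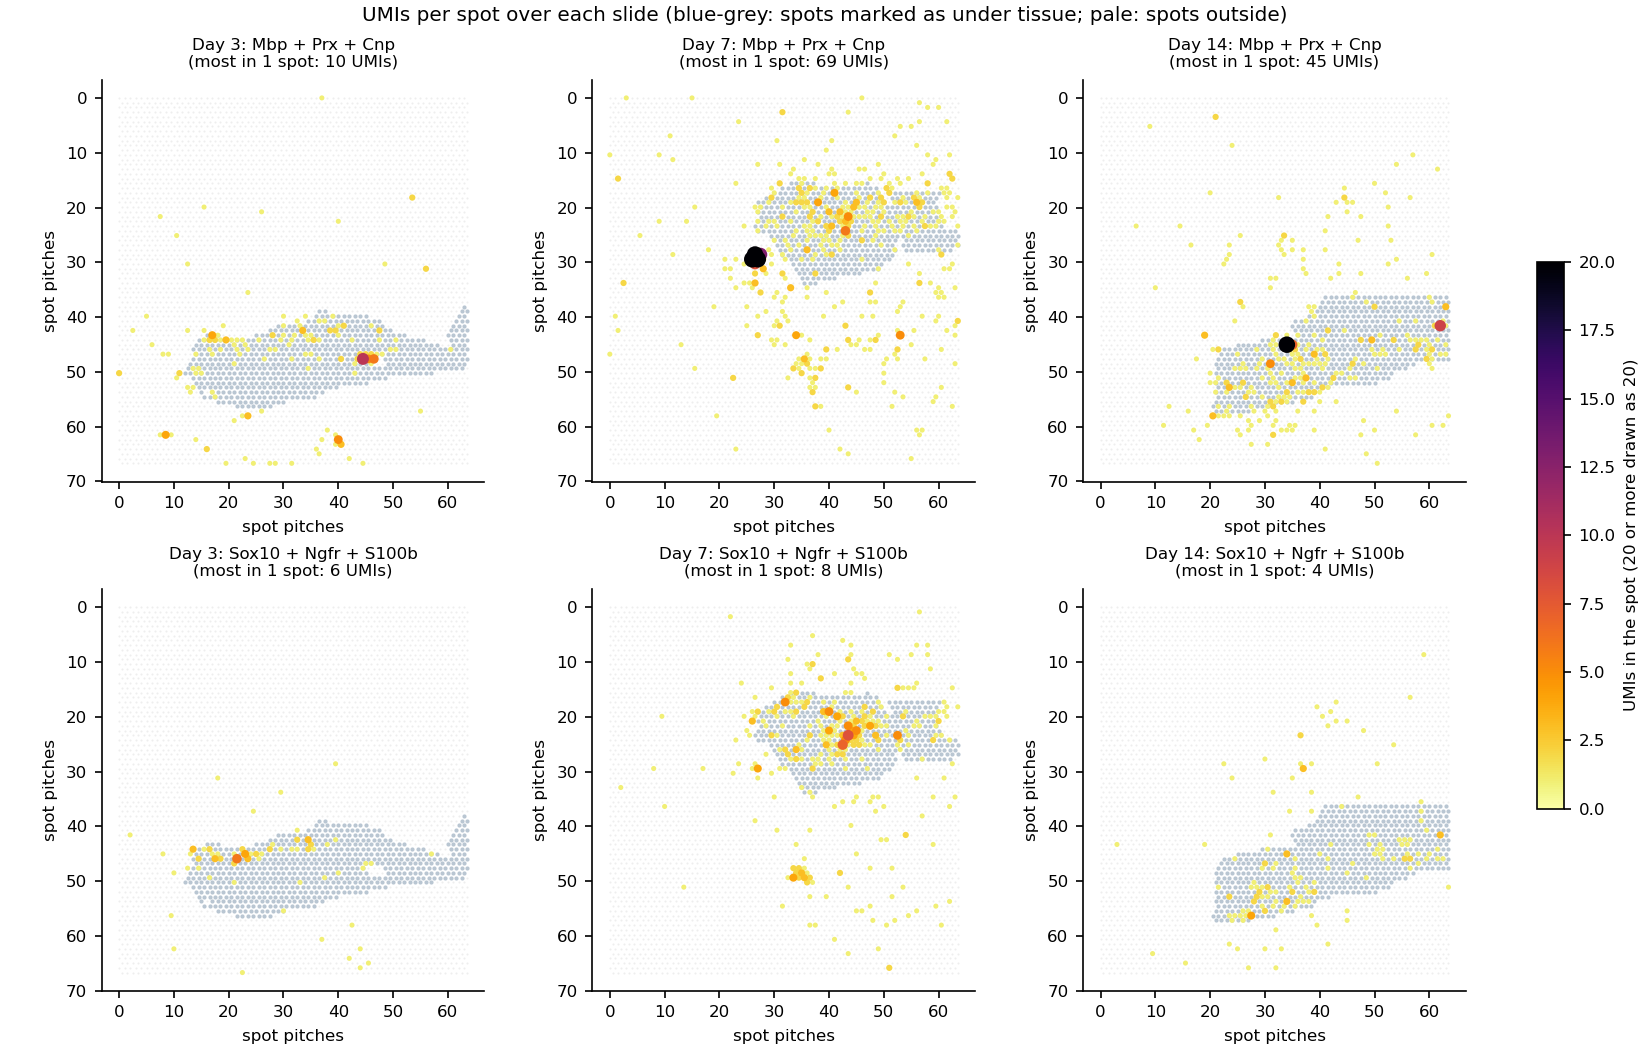
UMIs per spot over each slide for *Mbp*, *Prx* and *Cnp* summed (upper panels) and *Sox10*, *Ngfr* and *S100b* summed (lower panels), with both axes in spot pitches, marked spots in blue-grey and colour and size giving the UMIs, drawn as 20 where there were more. The upper panels show the few rich spots, at the edge of the marked region on Day 3, outside it on Day 7 and inside it on Day 14, and the lower panels show low counts spread over many spots.

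The level dropped within 3 pitches of these spots. Around the Day 14 spot *Pmp22* was at 20686 CPM in the centre, 1037 CPM in the 6 neighbours, 286 CPM at 2 pitches and 160 CPM at 3. *Mbp* there was at 5798, 144, 40.9 and 11.5 CPM. Around the Day 7 spot the centre and its neighbours were close in *Mbp*, at 3514 and 3235 CPM, followed by 202 CPM at 2 pitches and 104 CPM at 3. Around the Day 3 spot *Mbp* was at 6076, 1168, 541 and 36.4 CPM. The Day 7 profile was therefore wider than that of Day 14.

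**Figure D3:**
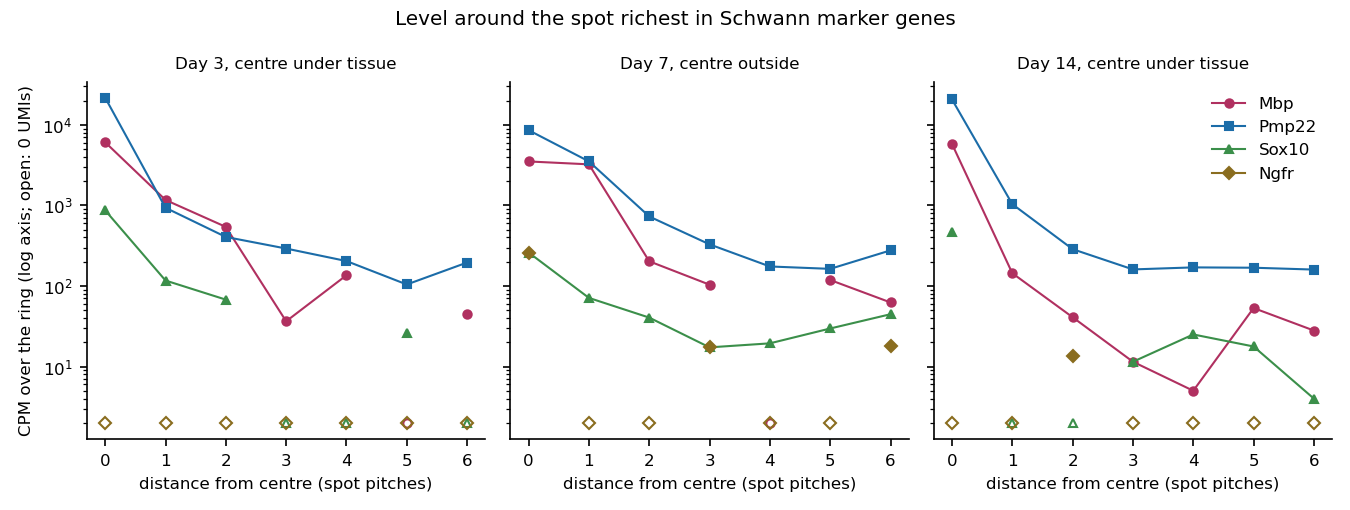
CPM (y axis, log scale) in rings of spots at 0 to 6 spot pitches (x axis) around the spot with the most marker UMIs, inside the marked region on Day 3 and Day 14 and outside it on Day 7, with open symbols for rings with 0 UMIs, drawn at an arbitrary low level. *Mbp* and *Pmp22* were highest in the centre, with *Mbp* at 6076, 3514 and 5798 CPM, and *Ngfr* was at 0 UMIs in all 7 rings of Day 3.

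Apart from these groups the members were thinly spread. At least 1 member was found in 268 of 664 marked spots on Day 3, 417 of 549 on Day 7 and 467 of 697 on Day 14, and the most members in 1 spot were 5, 6 and 5. Leaving out *Pmp22*, at least 2 members met in 21, 95 and 48 spots. Across all marked spots of a slide, which share a library and differ in depth, Pearson's r between log-scaled *Mbp* and *Pmp22* was 0.11, 0.02 and 0.22 for n = 664, 549 and 697. On Day 14 it was 0.15 without the richest spot, and r between *Mbp* and *Cnp* moved from 0.21 to 0.08. These are weak relations in sparse counts.

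The share of marked spots with *Mbp* differed before and after depth was made equal. *Mbp* was found in 6.93%, 18.4% and 14.6% of the marked spots, and after thinning each spot to 1000 UMIs in 3.29% of 426 (1.81% to 5.45%), 3.24% of 525 (1.90% to 5.13%) and 2.36% of 679 (1.35% to 3.80%), which gives no order of days. The thinning left out 238, 24 and 18 shallower spots, so that the spots compared changed along with depth. In the tenth of spots richest in cornified-layer genes, where no nerve is expected, the thinned share of *Mbp* was 4.65% of 43, 5.77% of 52 and 0 of 68 spots, the last allowing up to 4.41% by the limit of 3 counts. *Pmp22* was found in 23.2%, 16.4% and 15.5% of thinned spots, and in 23.3%, 19.2% and 17.6% of the cornified-rich ones. Median depths before thinning were 2373, 7128 and 4948 UMIs over all spots and 4680, 4731.5 and 8779 UMIs over the cornified-rich ones. Since epithelia also make *Pmp22*, these spots give no background for it, and the share of *Mbp* in 43 to 68 spots is known only within wide limits, so no reading was made from these shares.

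The surroundings of each member were read from marker lists of 10 genes, by comparing the fifth of marked spots richest in a list, among spots with at least 500 UMIs, with the remaining spots. *Ngfr* was higher in several surroundings. In spots rich in a list of repair Schwann cell genes (*Gap43*, *Ncam1*, *Jun* and others) its log2 ratio was 2.17 on Day 3 (18 UMIs against 12), 1.72 on Day 7 (44 against 47) and -2.46 on Day 14 (1 against 25), the last with an interval that held 0. *Jun*, an immediate-early transcription factor made by many cell types, gave 217 of the 279, 479 of the 890 and 532 of the 856 UMIs of that list, so that these spots are *Jun*-rich ones as much as any. In macrophage-rich spots the log2 ratio of *Ngfr* was 1.25 on Day 7 (43 UMIs against 48) and -0.92 on Day 3, where the interval held 0.

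On Day 3 and Day 14, but not on Day 7, *Ngfr* lay with the epidermal genes (*Krt5*, *Krt14* and others). In epidermis-rich spots its log2 ratio was 1.58 on Day 3 (19 UMIs against 11), -1.10 on Day 7 (9 against 82) and 2.62 on Day 14 (19 against 7). Thus 19 of 26 *Ngfr* UMIs on Day 14 lay in 137 spots, the fifth with the most keratinocyte RNA. The cornified-layer list gave 1.76 on Day 14 (13 against 13). The epidermal setting was not particular on Day 3, when *Ngfr* was also higher in matrix-rich spots, at 1.96. Without the richest spot the epidermal value of *Ngfr* was 1.22. The axon and T cell selections of Day 3 gave 1.55 and 1.31. Each took 20% of 520 spots, more spots than the 72 and 81 UMIs the lists held over all marked spots. Some spots of each selection therefore held no UMI of the list, and neither value describes axon or T cell surroundings. The T cell list, with 476 UMIs, gave 1.32 on Day 14. The part of keratinocytes in the Day 14 level of *Ngfr* was not tested.

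*Sox10* and *Cnp* shared surroundings with *Ngfr*. *Sox10* was higher in repair list-rich spots on Day 3, with a log2 ratio of 2.12 (13 UMIs against 9), in matrix-rich spots on Day 3, at 1.70, and in macrophage-rich spots on Day 7, at 0.71. It was lower in cornified-rich spots on Day 7 and Day 14, at -1.33 and -1.47. Melanocytes also make *Sox10*, and the melanocyte list (*Mlana*, *Pmel*, *Dct* and others) summed to 67.1, 57.8 and 566 CPM, while *Sox10* was at 12.4, 28.8 and 15.8 CPM. In melanocyte-rich spots the log2 ratio of *Sox10* was 1.23, -0.05 and -0.09, each with an interval that held 0. *Cnp* was higher in granulation-rich spots of Day 7 (*Postn*, *Tnc*, *Acta2* and others), with a log2 ratio of 1.22 (54 UMIs against 45), and in macrophage-rich spots of that day, at 0.90. *Ngfr* was likewise higher in the granulation-rich spots of Day 7, at 0.73 (42 against 49).

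On Day 14 *Pmp22* and *Mbp* were both low among muscle genes. In muscle-rich spots the log2 ratio of *Pmp22* was -0.69, -0.16 and -1.73, the Day 7 interval holding 0, and that of *Mbp* on Day 14 was -2.38 (3 UMIs against 161). Of these 161 UMIs, 37 lay in the single spot richest in marker genes. In matrix-rich spots (*Col1a1*, *Dcn* and others) *Pmp22* was at 0.93 on Day 3, -0.35 on Day 7 and 0.40 on Day 14. In macrophage-rich spots of Day 14 the log2 ratio was 1.42 for *Mbp* and 1.20 for *Pmp22*, but without the single richest spot it was 0.00 for *Mbp* (-0.73 to 0.68) and 0.54 for *Pmp22* (0.32 to 0.76). The Day 14 ratio of *Mbp* in repair list-rich spots, 1.51, was likewise 0.23 (-0.45 to 0.86) without it.

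**Figure D4:**
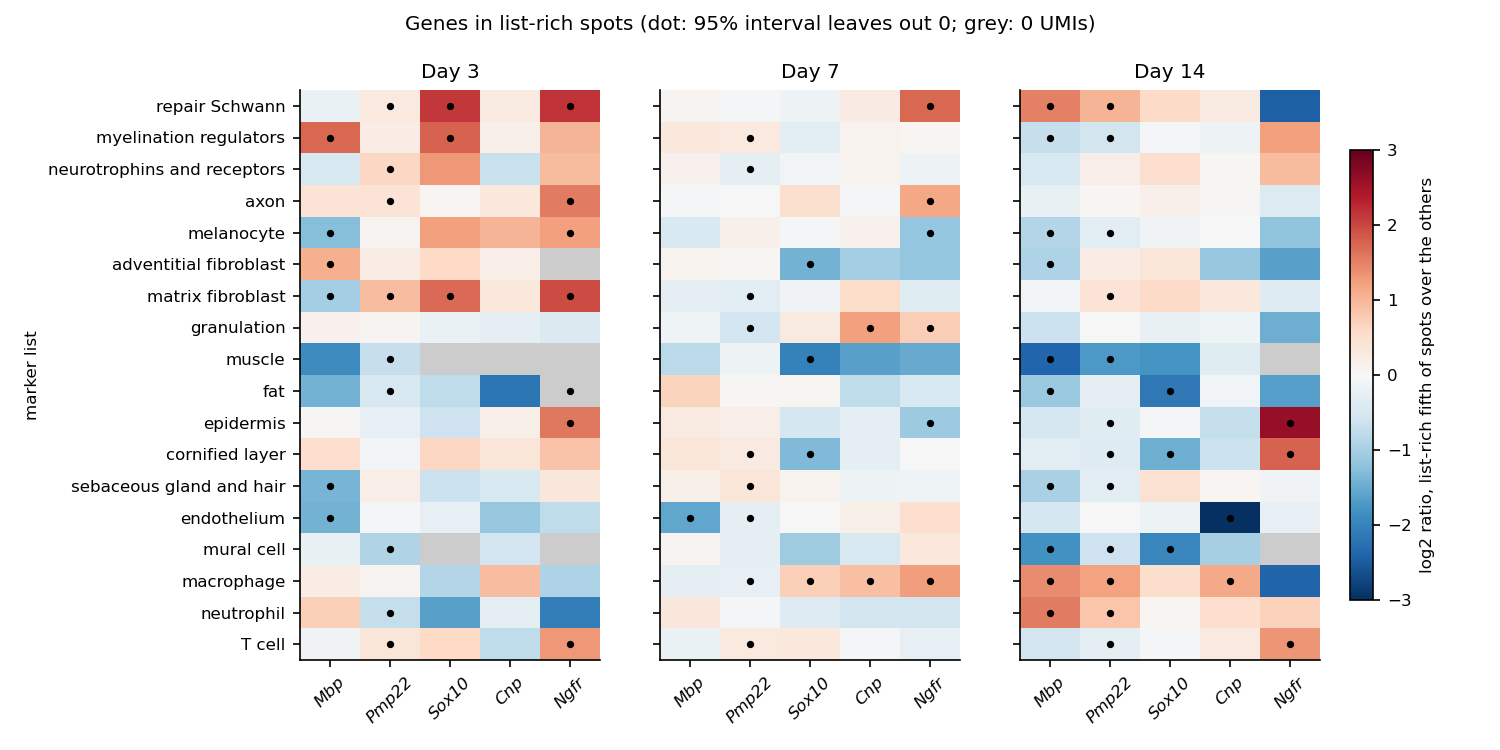
Log2 ratio (colour, from -3 to 3) of 5 members (columns) in the fifth of marked spots richest in each marker list (rows) over the remaining spots, for each day, with a dot where the 95% interval left out 0 and grey for 0 UMIs in the rich spots. *Ngfr* was at 2.17 and 1.72 in repair list-rich spots on Day 3 and Day 7, and at 2.62 in epidermis-rich spots on Day 14. For the axon and T cell lists of Day 3, some of the spots taken as rich held no UMI of the list.

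*S100b* had a place of its own on Day 7. Outside the marked region 23 of its 54 UMIs lay in 38 spots with at least 5 UMIs of *Ucp1*, which encodes the uncoupling protein of brown fat, and 13 of the 38 spots held it. Its level there was 30.5 CPM against 5.44 CPM in the remaining outside spots, a ratio of 5.60 (3.12 to 9.92). *Cidea*, another gene of brown fat, was at 878 against 69.1 CPM. Some Schwann cell genes were lower in the same spots, with *Mbp* at 13.2 against 47.0 CPM, a ratio of 0.282 (0.134 to 0.526), *Sox10* at 2.65 against 11.6 CPM and *Prx* at 0 against 34 UMIs. Of the 268 *Mbp* and 34 *Prx* UMIs in the remaining outside spots, 109 and 16 lay in the Day 7 group of 5 touching spots. No ratio was computed without that group, so its part in these differences was not tested. *Pmp22* was at 154 and 172 CPM, a ratio of 0.896 (0.732 to 1.09), *Cnp* at 19.86 and 19.99 CPM, a ratio of 0.994 (0.538 to 1.71), and *Ngfr* had 2 against 42 UMIs, a ratio of 0.360 (0.0422 to 1.38). The *Ucp1* spots were chosen after *S100b* had been seen among them, so the values stand as a description. *Ucp1* had 2007 UMIs outside and 430 in the marked spots of Day 7, on Day 3 it had 0 UMIs over the slide, and on Day 14 it had 3 outside and 6 in the marked spots. The pattern was not seen in the 6 marked spots of Day 7 with at least 5 *Ucp1* UMIs, where *S100b* had 1 UMI, a ratio of 1.36 (0.0332 to 8.32), *Cidea* was at 86.8 against 61.9 CPM, a ratio of 1.40 (0.692 to 2.55), and *Sox10* was higher at 71.0 against 27.6 CPM, a ratio of 2.58 (1.15 to 5.06). The part of *S100b* on Day 7 that came from fat rather than nerve was not tested beyond these counts.

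*Pi16*, a gene of adventitial fibroblasts, was examined beside the members as a candidate partner on Day 3. Its level in the marked spots was 605, 130 and 266 CPM on the 3 days. On Day 3 its pooled level was 364 CPM in the 46 spots with *Mbp* and 646 CPM in the 618 spots without, a ratio of 0.563 (0.450 to 0.697). The ratio lay below 1 for all 7 members on that day, from 0.346 for *S100b* to 0.842 for *Prx*, and the interval held 1 for *Prx* alone. The spots with *Mbp* were deeper, however, with a median of 4060.5 against 1441.5 UMIs. After each spot was thinned to 1000 UMIs the ratio turned to 2.32 (1.57 to 3.33) for the 14 spots that still held *Mbp*, 9 of which also held *Pi16*, to 2.94 for *S100b* and 3.94 for *Prx* with 2 spots each, while *Ngfr* at 0.241, *Sox10* at 0.321 and *Pmp22* at 0.890 remained below 1 with intervals that held 1. Before thinning, the spots that still held *Mbp*, *S100b* or *Prx* had medians of 1444, 1336 and 1363 UMIs, against 2402.5, 2377.5 and 2377.5 in the others. Those that still held *Ngfr*, *Sox10* or *Pmp22* had 6104, 5188.5 and 3022 UMIs, against 2366, 2358.5 and 2291. The thinned ratios therefore still compared spots of unlike original depth, whose part was not tested. No single direction was found for *Pi16*. Pearson's r over the 664 spots was 0.09 with *Mbp*, and *Pi16* stood in place 977 among the partners of the members' mean on Day 3, at r = 0.15.

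**Figure D5:**
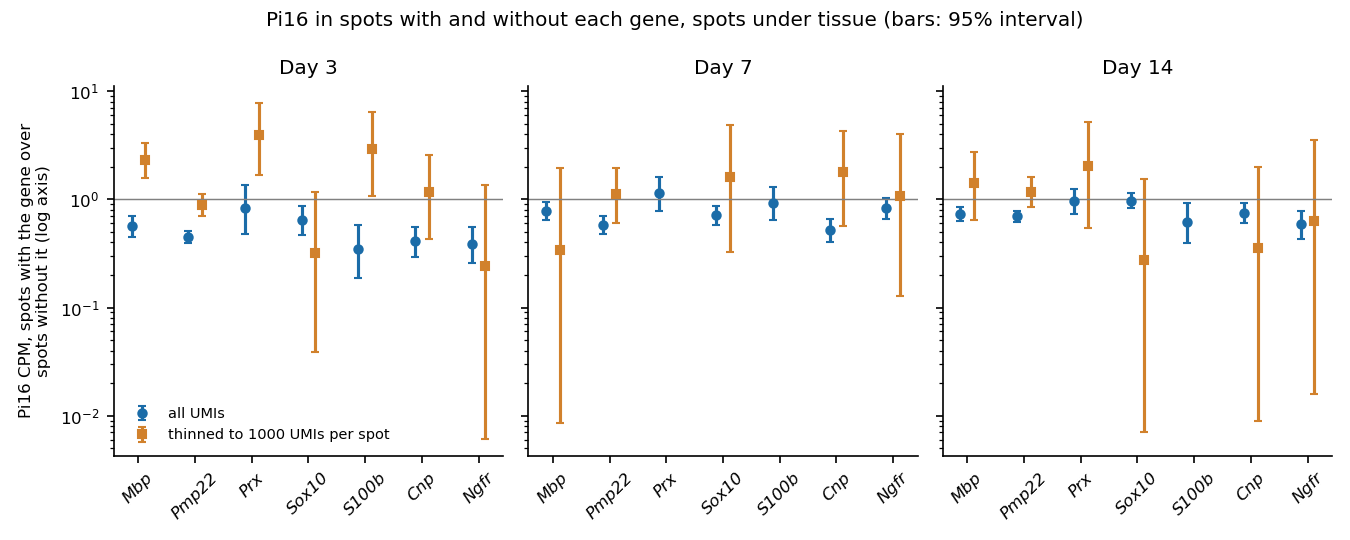
Ratio of the *Pi16* level in marked spots with each gene over spots without it (y axis, log scale), by gene (x axis) and day, from all UMIs (circles) and after thinning each spot to 1000 UMIs (squares), with 95% intervals. On Day 3 the value for *Mbp* was 0.563 from all UMIs and 2.32 after thinning.

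The genes whose level followed the mean of the 7 members most closely over marked spots differed between days. On Day 3 the 5 closest included *Apod* (r = 0.37), *Col1a1* (0.34), *Bgn* (0.33) and *Grn* (0.33), over 664 spots. On Day 7 they were *Lmna* (0.35), *Postn* (0.33), *S100a6* (0.31), *Col1a2* (0.31) and *Col5a1* (0.30), over 549 spots. On Day 14 they included *Cadm4* (0.31), a cell adhesion gene of the myelin sheath, *Sfrp5* (0.30), *Col1a1* (0.29) and *Krt5* (0.29), over 697 spots. Without the richest spot of Day 14, *Cadm4* and *Sfrp5* left the first 5, and *Col1a1* led at 0.33. After thinning the highest r of the genes named here was 0.17, for *Apod* on Day 3. The spots of a slide share its library and vary in depth.

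The wider Schwann cell and nerve genes were counted by list under the same call. Over all genes tested 15.9% were higher and 14.2% lower from Day 3 to Day 7, and 22.3% were higher and 14.7% lower from Day 7 to Day 14, and lists of so few genes are given beside these shares as descriptions. Of the 8 marker genes named, 6 were tested from Day 7 to Day 14. *Mag*, a gene of the myelin sheath, was higher at 5.01-fold, and 3 were lower, *Gjc3* at 0.301-fold, *Cdh19* at 0.321-fold and *Scn7a* at 0.576-fold. *Mag* rose from 5 to 26 UMIs, of which 6 lay in the richest Day 14 spot, and *Gjc3* fell from 16 to 5 UMIs. With such counts no contrast between myelin and other Schwann cell genes was read from the list. *Cdh19* and *Scn7a* are genes of immature and non-myelinating Schwann cells.

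Among repair genes *Gap43*, a growth-associated protein, was 3.59-fold and *Ncam1*, an adhesion molecule also of regenerating muscle, 3.70-fold higher on Day 7 than on Day 3, 2 of 5 tested, and *Sox2* was lower at 0.285-fold. From Day 7 to Day 14 the list moved both ways, with 2 of 6 tested lower, *Gap43* at 0.107-fold and *Ncam1* at 0.321-fold, and 2 higher, the adhesion molecule *L1cam* at 1.84-fold and *Shh*, a signal also made by hair follicles, which went from 6 to 154 UMIs. Of the regulators of myelination, 7 of 10 were higher on Day 14 than on Day 7, among them *Egr2* at 3.70-fold, the activator of myelin genes, *Pou3f1* at 2.83-fold and the neuregulin receptor *Erbb3* at 3.33-fold, and 2 were lower, *Zeb2* and *Nrg1*. From Day 3 to Day 7, 1 of these 10 was higher and 2 were lower. *Egr2*, *Pou3f1* and *Erbb3* are also genes of epidermis, hair follicle or melanocytes, whose lists moved with them: the epidermis list summed to 9306, 5119 and 11899 CPM and the sebaceous gland and hair list to 3859, 2319 and 7111 CPM, and their part was not tested.

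Among neurotrophins and receptors, 3 of 7 tested were higher on Day 7 than on Day 3, the sorting receptor *Sort1* at 1.99-fold, the p75 homologue *Nradd* at 2.67-fold and the p75-binding protein *Maged1* at 1.73-fold, with none lower. From Day 7 to Day 14 *Maged1* at 0.513-fold and the receptor *Ntrk2* at 0.540-fold were lower, 2 of 8 tested, in the same direction as *Ngfr*, and *Ntf5* was higher at 1.85-fold. Of the axon genes 3 of 10 reached the minimum. *Tubb3*, a tubulin of neurons, was higher on Day 7 than on Day 3 at 3.12-fold, and from Day 7 to Day 14 *Stmn2* at 0.458-fold and *Uchl1* at 0.248-fold were lower, while *Nefl* had 0 UMIs in the marked spots of the 3 slides.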

How the data were processed

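The authors deposited 3 unfiltered Visium matrices of raw UMI counts per gene and spot, with spot positions and a mark for tissue. Space Ranger 1.3.0 and the build mm10 are named in the submitters' processing notes. Counts were used as deposited, and 0 columns were left unmapped. Levels were pooled counts per 1000000 UMIs with exact Poisson intervals, ratios had exact conditional binomial intervals, and shares had Clopper-Pearson intervals, all at 95%. Calls needed 1.5-fold, an interval without 1 and 20 UMIs over both sides, and no p-value was computed, since each day had 1 section. Thinning drew 1000 UMIs a spot with seed 1, and r was taken on log-scaled UMIs per 10000. Python 3.11.15, numpy 2.4.6, scipy 1.17.1, pandas 2.3.3 and matplotlib 3.10.9 were used, with R 4.3.3, edgeR 4.0.16 (TMM) and DESeq2 1.42.0 (size factors) for scaling alone. The code was tested on simulated data. The members and the 19 marker lists were chosen with earlier results of these data known. Genes named were the 7 members, list genes that reached 20 UMIs in all, *Pi16*, the 5 closest partners a day among genes with at least 50 UMIs and, chosen after their values were seen, *Ucp1* and *Cidea* with the genes of the Day 14 window. Promoter windows came from RefSeq GRCm38.p6. Some genes of the lists are not reported here.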

Additional observations from a re-analysis of the deposited data

Results flagged for a closer look

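Several members stood on opposite sides of no change on different days, with intervals that left out 1 (or 0 on the log2 scale) on each side. Each day had 1 section, and none of these differences was tested. The ratio of *Mbp* outside over under tissue was 1.69 on Day 7 and 0.441 on Day 14, and without spots of at least 10 marker UMIs it was 0.999 and 0.618. In adventitial fibroblast-rich spots the log2 ratio of *Mbp* was 1.07 on Day 3 and -0.92 on Day 14. In matrix fibroblast-rich spots that of *Pmp22* took the values 0.93, -0.35 and 0.40 for Day 3, Day 7 and Day 14. In epidermis-rich spots that of *Ngfr* took the values 1.58, -1.10 and 2.62 in the same order, and without the Day 7 spot richest in marker genes the Day 7 value was -0.99, with an interval that reached 0.01. In macrophage-rich spots that of *Pmp22* was -0.25 on Day 7 and 1.20 on Day 14. Without the spot richest in marker genes, the Day 14 value of *Mbp* in adventitial fibroblast-rich spots was -0.53 with an interval that held 0, and the Day 14 value of *Pmp22* in macrophage-rich spots was 0.54.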

How the results depend on the processing

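Of 171 counts of called members and medians under the alternatives, 142 stayed within 1.5 times the reported count or within 0.25 of the reported median, and TMM and DESeq2 scaling moved none past that. Of 783 single values, 625 stayed within their interval or, for r, which had none, close to the reported value. A further 149 moved, and 9 turned direction, a label kept for reported values that were called or whose interval left out no change. For Day 7 over Day 3, members called higher were 2 with the mean of spot CPM and 2 over all spots, and members called lower were 0 over all spots, 0 at 2-fold and 1 without the 5 member-richest spots, with muscle and matrix genes left out of the denominator or without the spot richest in marker genes or every spot with at least 10 marker UMIs. For Day 14 over Day 3, the mean of spot CPM gave 1 higher, 4 lower and a median of -0.68, and the other denominator gave 1 lower. For Day 14 over Day 7, the mean of spot CPM gave 1 higher, and 2-fold gave 2 lower. Outside over under tissue on Day 7, 0 were higher with the mean of spot CPM, at 2-fold or without spots of at least 10 marker UMIs, where the *Mbp* ratio was 0.999. In marker spots of Day 3, Day 7 and Day 14, thinning left 2, 0 and 1 called, a shorter marker list gave 3, 2 and 5, leaving out the 5 richest spots gave 1, 0 and 0, and leaving out the richest spot gave 3 on Day 3 and 1 on Day 14, while 2-fold gave 0 on Day 7. The omission of the richest spot or spots with at least 10 marker UMIs was chosen after seeing the data. Thinning turned the *Pi16* ratio on Day 3 to 2.32 for *Mbp*, 2.94 for *S100b* and 1.17 for *Cnp*, on Day 7 to 1.12 for *Pmp22*, 1.63 for *Sox10* and 1.78 for *Cnp*, and on Day 14 to 1.43 for *Mbp* and 1.18 for *Pmp22*. The cause of these shifts was not tested beyond the construction of each alternative. No paired analysis was possible because each day had 1 section, which also left no replicate to leave out. Depth limits *Prx* and *S100b*, with 7 and 12 UMIs on Day 3.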

Other observations

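On Day 14, *S100b* also had a place outside the marked region. In a window of 4 spot pitches around the outside spot with the most *S100b* nearby, 59 spots held 5 of the 14 outside UMIs of *S100b*, or 35.7%, in 3 spots. The genes that stood highest there over the rest of the slide were *Bglap*, Mt3, Bglap2, *Ibsp*, Acp5, *Dmp1*, *Col11a2* and *Mmp9*, of which *Bglap*, *Ibsp* and *Dmp1* are genes of bone. The window held 219747 UMIs, with 2 *Mbp*, 1 *Sox10*, 1 *Prx* and 0 *Ngfr* UMIs, and the 10 Schwann marker genes summed to 36.4 CPM. On Day 7 the like window was led by *Ucp1*, Gys2, Otop1 and *Cidea*, held 23 *S100b* UMIs or 42.6% of those outside, and had the marker genes at 46.9 CPM beside 126 CPM over all outside spots. The windows were centred on *S100b* and chosen after its values were seen, so their *S100b* counts have no test.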
